A study of Mus musculus with 17 samples.

Results

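The nuclear genes for subunits of the mitochondrial respiratory chain and of ATP synthase were followed through 6 groups of sorted mouse myeloid cells. They were taken by name, as genes whose symbol begins with Nduf (followed by a, b, c, s or v and a digit), Sdh (a to d), Uqcr, Cox (numbers 4 to 8) or Atp5. Of 17097 genes measured by a probe set with exactly 1 symbol, 79 met this rule, and each was represented by its probe set of highest mean across all 17 arrays. They comprised 34 genes of complex I, 4 of complex II, 7 of complex III, 17 of complex IV and 17 of ATP synthase. Ndufa4 is listed with complex I for its name, although its protein is now counted with complex IV, Cox7a2l encodes a supercomplex assembly factor, and Ndufs5-ps is annotated as a pseudogene.

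The respiratory chain passes electrons from NADH (complex I) and succinate (complex II) through ubiquinone to complex III, from there through cytochrome c to complex IV, and finally to oxygen. Complexes I, III and IV pump protons across the inner mitochondrial membrane, and ATP synthase lets them flow back to make ATP. The mitochondrial genome encodes a few core subunits, and all genes described here are nuclear. Mature granulocytes are known for few mitochondria and a largely glycolytic energy supply, while macrophages and proliferating progenitors respire.

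Macrophages (CD11c-CD11b+MCSFR+) and granulocytes (CD11c-CD11b+Ly6C+MCSFR-) came from wild-type spleen, as 3 pools each. Myelo-dendritic progenitors (MDPs), which give rise to macrophages and dendritic cells, were sorted from bone marrow as CD117+ and MCSFR+ cells lacking lineage markers, sca1 and CD127. There were 3 wild-type pools, 3 pools titled IRF8_ko_MDP, 3 VENUS-positive pools (titled IRF8_PAC_MDP) and 2 VENUS-negative pools (titled IRF8_neg_MDP). The last 3 groups all carry the genotype label IRF8-deficient. They are called knockout-labelled, VENUS-positive and VENUS-negative MDPs here, since the labels do not say whether that genotype means the reporter allele. Every spleen, wild-type and knockout-labelled pool held cells of 5 mice, the VENUS pools have no stated number of mice, and all mice were 6 to 10 weeks old. The dendritic cell samples named in the design text were not analysed here.

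Values are log2 expression values on Affymetrix arrays, so a difference of 1 is a doubling. The small number of arrays limits the precision, and p-values measure the spread between pools, shared per gene over all 6 groups. The median gene of an array lay between 4.82 and 5.01. Irf8, the targeted gene, did not separate the knockout-labelled pools (10.31 ± 0.12, SD, n = 3) from the wild-type MDPs (10.34 ± 0.19, SD, n = 3). It stood at 10.88 ± 0.19 (SD, n = 3) in VENUS-positive and 5.87 ± 0.54 (SD, n = 2) in VENUS-negative MDPs. Where its probe set lies relative to the deleted part is not given, so it does not check the knockout label. The macrophage, granulocyte and MDP marker lists had their highest means in the populations they name, and the mean of 10 granulocyte markers was 11.97 to 12.32 in granulocytes. Other markers were also present. Macrophage pools read 6.30 to 7.87 for granulocyte markers. VENUS-negative MDPs read 9.25 and 8.49 for erythroid and megakaryocyte markers, and 7.73 and 7.79 for mast cell and basophil markers. Wild-type MDP pool 3 stood apart, with granulocyte markers at 8.34 against 4.84 and 4.59 in the other wild-type pools. Its 14 erythroid and megakaryocyte markers stood at 7.91 against 5.57 and 6.29, and its 6 mast cell and basophil markers at 6.95 against 4.43 and 4.51. Granulocyte pools also carried a mean of 6.60 to 7.38 over 8 NK cell markers, against 4.41 to 5.38 in all other arrays. B cell, T cell and dendritic cell markers had means of 3.72 to 5.12 in every array except the macrophage pools, where the dendritic cell markers reached 6.38 to 6.75.

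As a second background beside all genes, the 4275 genes with the highest mean over all arrays are called high-signal genes here. They hold 72 of the 79 members, a description of probe signal that rests on the same mean that chose each probe set and does not rank transcript levels. Only Ndufa4l2, Cox7a1, Cox7b2 and Cox8b lay under the array median in every group. Granulocytes had the lowest group mean for 69 of the 79 genes, and for 48 genes all 3 granulocyte arrays lay below all 14 others, which held for 12.7% of all genes. The highest group mean fell in an MDP group for 64 genes, in macrophages for 8 and in granulocytes for 7.

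The mean over the 79 genes was 9.60, 9.48 and 9.71 in the wild-type MDP pools and 9.22, 9.21 and 9.18 in the macrophage pools. It was 8.70, 7.95 and 8.21 in the granulocyte pools. These 3 groups did not overlap. The knockout-labelled MDPs, at 9.58, 9.45 and 9.55, the VENUS-positive MDPs, at 9.45, 9.52 and 9.63, and the VENUS-negative MDPs, at 9.59 and 9.47, all overlapped the wild-type MDPs. Granulocyte pools were also the least alike, with a median SD per gene of 0.46 against 0.08 in macrophages and 0.15 in wild-type MDPs. The members spanned a narrow range in the 4 progenitor groups. The range of the 4 MDP group means had a median of 0.26 over the members and 0.37 over all genes.

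**Figure D1:**
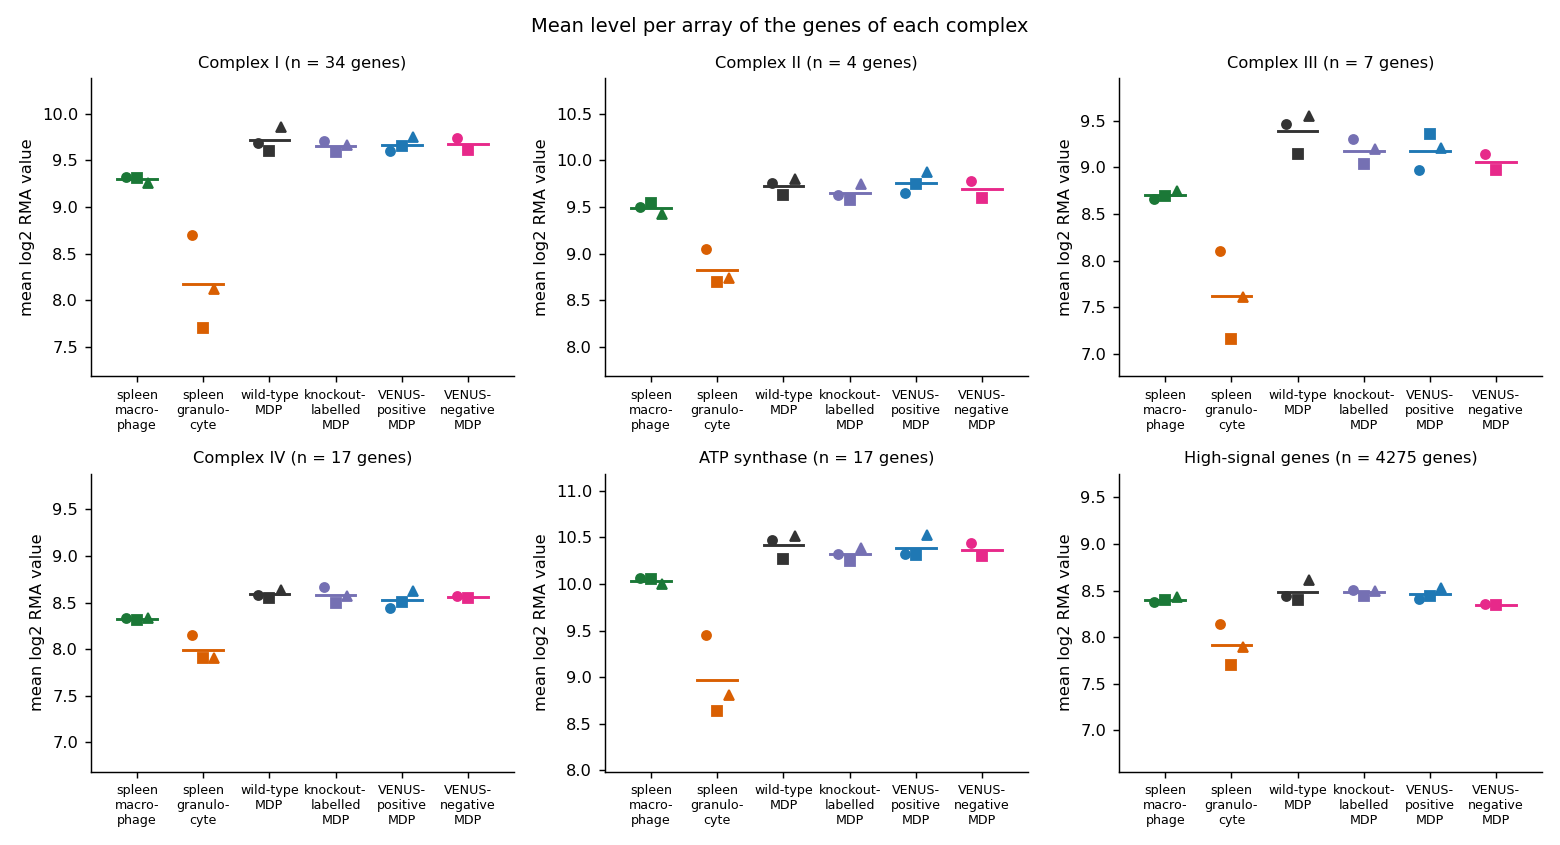
Mean log2 value of the genes of each complex, and of the 4275 high-signal genes, in every pool (circle, square and triangle for pools 1, 2 and 3; line, group mean). Granulocyte pools lie lowest in all panels, pool 1 nearest to the other groups, and the 4 MDP groups lie close together.

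Nuclear respiratory chain genes are classical targets of nuclear respiratory factor 1 (NRF1) and of the ETS-family factor GABP. Promoter windows of 300 bases (250 before to 50 after the start) were found for 63 of the 79 genes in RefSeq's GRCm38.p6 annotation and searched on both strands for the core of each factor's site. The NRF1 core GCGCATGC occurred in 10 of the 63 genes (15.9%), against 3.05% of all 27025 genes with a promoter and 4.65% of the 13514 measured on these arrays. The ETS core CCGGAAG occurred in 15 genes (23.8%), against 9.93% and 15.1%. Both occurred in 5 genes (7.94%), against 0.618% and 0.977%. In a shorter window of 150 bases, 8 members held the NRF1 core (12.7%, against 2.23% of all genes and 3.39% of those measured) and 14 the ETS core (22.2%, against 7.52% and 11.6%). The stretches below, given 5′ to 3′ on the strand of the gene, lie before the start and show the matches there in capitals, for genes whose levels are described further on. Matches across or after the start lie outside them, namely an NRF1 core of Uqcr11 and an ETS core each of Sdhb, Ndufs3 and Atp5l. Where the capitals read GCGCATGCGC, 2 NRF1 matches overlap, 1 on each strand, and GCATGCGC and CTTCCGG are the cores read on the opposite strand.
Ndufa11 (chr17:56717687-56717726, plus strand): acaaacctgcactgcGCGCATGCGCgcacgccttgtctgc
Atp5g2 (chr15:102671065-102671104, minus strand): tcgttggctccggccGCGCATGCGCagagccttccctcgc
Sdhb (chr4:140961202-140961239, plus strand): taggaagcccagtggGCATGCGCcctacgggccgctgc
Ndufs3 (chr2:90904727-90904763, minus strand): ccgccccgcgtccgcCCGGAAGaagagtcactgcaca
Uqcr11 (chr10:80406866-80406902, minus strand): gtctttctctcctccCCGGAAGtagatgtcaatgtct
Cox6b1 (chr7:30626121-30626157, minus strand): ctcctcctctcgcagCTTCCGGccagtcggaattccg
Ndufb7 (chr8:83566723-83566757, plus strand): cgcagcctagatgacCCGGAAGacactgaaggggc
Sdhd (chr9:50603874-50603910, minus strand): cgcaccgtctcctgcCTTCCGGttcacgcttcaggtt
Atp5l (chr9:44920933-44920992, minus strand): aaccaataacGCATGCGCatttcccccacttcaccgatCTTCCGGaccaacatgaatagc
A match is a description of the letters in the window. The genes shown include both some with a large drop in granulocytes (Ndufs3, Uqcr11, Atp5g2) and some called in neither spleen population against MDPs (Ndufb7, Sdhd).

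The comparison of spleen granulocytes with wild-type MDPs asked how a mature granulocytic population differs from a bone marrow progenitor. Subunit genes of every complex were lower in granulocytes, by up to 11.0-fold. At a limma adjusted p under 0.05, 60 of the 79 fell, 2 rose and 17 did not pass. Of all genes, 45.2% were called, 23.1% as lower and 22.0% as higher, and of the high-signal genes, which hold most members, 49.2% were called lower. The members' median difference was -1.23, against 0.10 over all genes and -0.61 over the high-signal genes. In a bulk sample, fewer cells of a type and less RNA per cell cannot be told apart. Centring each array on the high-signal genes, in place of the deposited scale, moved the median of all genes from 0.10 to 0.67. On that scale 46 members were called lower and 9 higher, with a median of -0.65. Of all 17097 genes, 2690 were then called lower and 10467 higher. Among the 4275 high-signal genes, 1575 were called lower and 1530 higher, with a median of -0.03.

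Complex I, the NADH dehydrogenase, had 26 of its 34 genes lower and none higher, with a median of -1.41. Ndufc2, an accessory subunit of the membrane arm, read 10.51, 10.25 and 10.35 in wild-type MDPs and 8.04, 5.99 and 6.72 in granulocytes. It fell by 3.46 on the log2 scale (SE 0.37, limma adjusted p = 2.5e-06), an 11.0-fold drop. All granulocyte pools lay below all MDP pools, pool 1 the least. Ndufa12, an accessory subunit of the NADH-oxidising module, differed by -3.30 (SE 0.35) and Ndufb2, of the membrane arm, by -3.25 (SE 0.30). Ndufa10 differed by -2.90 (SE 0.39) and Ndufa11 by -2.88 (SE 0.33), both in the membrane arm. For Ndufa11 and Ndufa12, another probe set of the gene had the opposite sign, at means of 3.89 and 3.45, under the array median. A further probe set of Ndufa12, at a mean of 8.76, differed by -3.87.

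The drop reached the catalytic core of complex I. The core is the set of subunits conserved from bacteria that carry the flavin and the iron-sulfur clusters, and all 6 nuclear core genes fell, with a median of -2.05. Ndufs3, a core subunit of the quinone module, read 8.11, 8.26 and 8.28 in wild-type MDPs and 5.94, 5.23 and 5.92 in granulocytes. The groups were more than 2 log2 units apart (difference -2.52, SE 0.17, limma adjusted p = 2.72e-08). By module, 5 of 5 genes of the quinone module fell (median -2.38), 9 of 10 of the NADH-oxidising module (median -1.33) and 11 of 17 of the membrane arm (median -1.28). Ndufb7, a membrane-arm subunit whose promoter stretch is shown above, read 12.58, 12.29 and 12.40 in granulocytes and 12.04, 12.10 and 12.15 in wild-type MDPs. Its granulocyte values lay above the MDP values, but the difference of 0.32 did not pass. Another probe set of Ndufb7, at a mean of 9.18, differed by -0.04. Ndufb7 was named after its values were seen.

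Complex II, succinate dehydrogenase, which also works in the tricarboxylic acid cycle, was split on the probe sets used. Sdhc, a membrane anchor, read 9.06, 8.62 and 9.03 in wild-type MDPs and 7.40, 6.35 and 6.38 in granulocytes, without overlap (difference -2.19, SE 0.26, limma adjusted p = 8.67e-06). Sdhb, the iron-sulfur subunit, read 9.49, 9.53 and 9.46 in MDPs and 8.73, 8.44 and 8.39 in granulocytes, and fell by 0.97 (SE 0.12, limma adjusted p = 1.44e-05). The other 2 genes did not pass. Sdha, the flavoprotein, differed by -0.34 (limma adjusted p = 0.0879). Its size depended on the probe set, since another one of Sdha, at a mean of 9.44, differed by -1.30. Those at means of 3.21 and 2.82, under the array median, differed by -0.02 and -0.04. Sdhd, the other membrane anchor, differed by -0.10 (limma adjusted p = 0.621), which became 0.47 with arrays centred on the high-signal genes.

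Complex III, the cytochrome bc1 complex, was the only complex with every gene called, all 7 lower, with a median of -1.52. Uqcr11, a small supernumerary subunit, read 9.84, 9.51 and 9.83 in wild-type MDPs and 7.20, 6.72 and 6.92 in granulocytes. It fell by 2.78 (SE 0.17, limma adjusted p = 8.14e-09), a 6.86-fold drop with a wide gap between the groups. Uqcrb differed by -2.15 (SE 0.37), Uqcrq by -2.10 (SE 0.25), the core subunit Uqcrc2 by -1.52 (SE 0.23) and Uqcr10 by -1.46 (SE 0.23). Another probe set of Uqcrq, at a mean of 4.57, had the opposite sign.

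Complex IV, cytochrome c oxidase, had 10 of 17 genes lower and 2 higher, with a median of -0.59, near that of the high-signal genes. Its 9 general subunits all fell, by a median of 0.76. With arrays centred on the high-signal genes, 3 of these 9 were called lower, and the complex as a whole had 4 lower and 5 higher. On that scale 1575 of the 4275 high-signal genes were called lower and 1530 higher. Cox5a, which binds the regulatory face of the enzyme, differed by -1.73 (SE 0.21). Cox6b1, which joins the monomers of the dimer, differed by -1.19 (SE 0.16), Cox7a2 by -0.96 (SE 0.21), and Cox4i1 read 10.91, 10.69 and 10.94 in MDPs and 10.06, 9.54 and 9.64 in granulocytes (difference -1.10, SE 0.14, limma adjusted p = 1.97e-05). All 3 Cox4i1 granulocyte values lay below the MDP values.

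ATP synthase had 15 of 17 genes lower, with a median of -1.29. The genes of the rotating c-ring all encode the same mature subunit c with different import signals, and all 3 fell, by a median of 3.06. Atp5g1 read 9.89, 9.41 and 9.59 in wild-type MDPs and 6.89, 5.86 and 6.47 in granulocytes, a 9.34-fold drop (difference -3.22, SE 0.22, limma adjusted p = 3.99e-08). Atp5g2 read 10.04, 9.33 and 9.64 in MDPs and 7.14, 6.35 and 6.34 in granulocytes, an 8.35-fold drop (difference -3.06, SE 0.23, limma adjusted p = 9.32e-08). Both gaps were wider than the spread of either group. Atp5g3 read 10.50, 10.32 and 10.41 in MDPs and 9.27, 8.19 and 8.85 in granulocytes (difference -1.64, limma adjusted p = 3.1e-05). The catalytic head and central stalk had 5 of 5 genes lower (median -1.29), led by the catalytic subunit Atp5b at -1.76 (SE 0.22). The peripheral stalk had 2 of 4 lower, among them Atp5o at -2.34 (SE 0.22), and the small membrane subunits had 5 of 5, among them Atp5mpl at -2.18 (SE 0.22). Of these small subunits, Atp5k and Atp5l reversed sign with arrays centred on the high-signal genes.

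**Figure D2:**
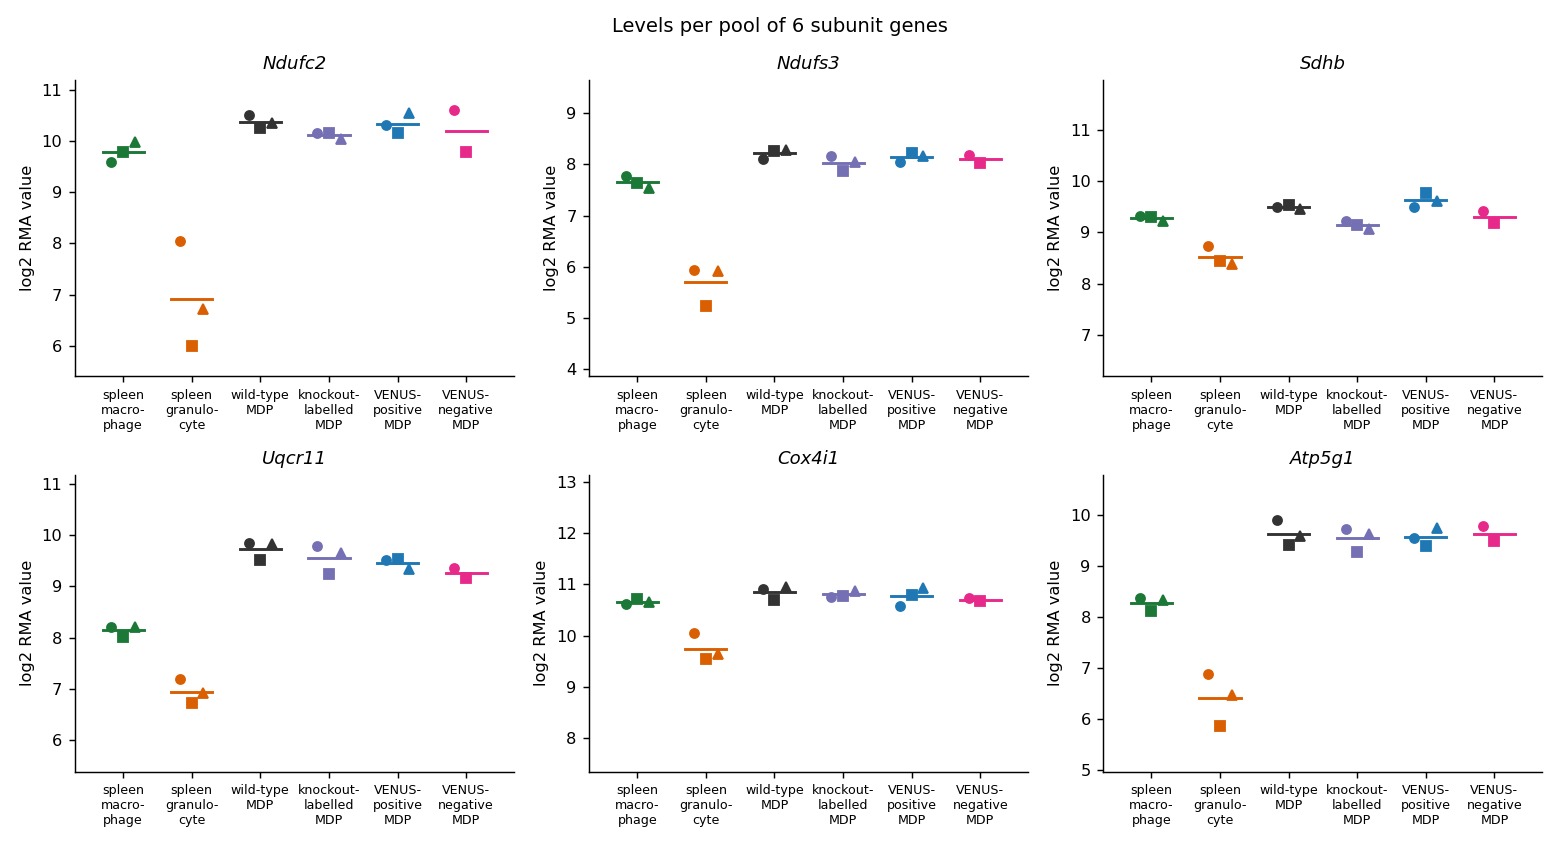
Log2 values per pool of 6 subunit genes (circle, square and triangle for pools 1, 2 and 3; line, group mean; each panel has its own axis range of equal height). Granulocytes lie below every other group in all 6 panels. By group mean, macrophages lie between granulocytes and MDPs except for Sdhb, clearly so for Uqcr11 and Atp5g1. For Sdhb, macrophages lie above the knockout-labelled MDPs.

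The isoform genes of complex IV were mixed, with 1 of 7 lower and 2 higher. Cox6b2, known as the testis isoform of Cox6b, read 8.22, 8.11 and 8.25 in wild-type MDPs and 5.56, 6.16 and 4.60 in granulocytes. The difference of -2.75 (SE 0.38, limma adjusted p = 2.87e-05) was a 6.74-fold drop with no overlap. The 2 genes called higher in granulocytes were both isoforms near the array median. Cox4i2, the isoform known from lung and from low oxygen, read 4.73, 5.29 and 5.20 in granulocytes and 4.39, 4.68 and 4.50 in MDPs (difference 0.55, limma adjusted p = 0.00718). Cox8b, the isoform of heart and skeletal muscle, read 5.26, 4.70 and 4.55 in granulocytes and 4.14, 4.30 and 4.28 in MDPs (difference 0.60, limma adjusted p = 0.0311). Cox6a2, Cox7a1, Cox8c and Cox7b2 did not pass. Ndufa4, at 10.57, 10.45 and 10.81 in MDPs and 9.92, 8.84 and 8.88 in granulocytes, fell by 1.40, while Ndufa4l2 did not pass and lay under the array median throughout.

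Leaving out wild-type MDP pool 3, the pool with granulocyte and erythroid markers, gave 58 called genes and a median of -1.16. Leaving out granulocyte pool 1, whose members stood highest, gave 65 called genes. The 8 NK cell markers stood higher in granulocytes for 7 genes, and the 21 cell cycle genes read a mean of 7.70, 5.60 and 6.53 in granulocytes against 8.65 to 8.95 in wild-type MDPs; their part in the result was not tested.

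The comparison of spleen macrophages with wild-type MDPs set another mature population against the same 3 progenitor pools, so it shares its control arrays with the previous comparison. The members' median difference was again below 0, by less, and fewer subunit genes were called lower. Of the 79, 23 fell and 1 rose, where 23.6% of all genes were called, 12.2% as lower and 11.4% as higher. Among the high-signal genes, which hold most members, 24.7% were called lower. The share of the members lay near that, so the count of calls is not a result about the members. The median difference was -0.34, against 0.00 over all genes and -0.08 over the high-signal genes. Arrays did not overlap for 55 of the 79 members and for 3084 of the 4275 high-signal genes. Without wild-type MDP pool 3 the call count was 17, and fitting only the arrays compared gave more calls.

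In complex I, 9 of 34 genes fell (26.5%), a share near that of the high-signal genes. Ndufb2 read 7.32, 7.15 and 7.08 in macrophages and 8.66, 8.35 and 9.30 in wild-type MDPs, a 3.00-fold drop without overlap (difference -1.59, SE 0.30, limma adjusted p = 0.0011). Ndufa12 differed by -1.38 (SE 0.35), Ndufa5 of the quinone module by -1.15 (SE 0.29), Ndufb4 by -1.13 (SE 0.17) and Ndufv1, which binds the flavin and oxidises NADH, by -1.10 (SE 0.22). Other probe sets of Ndufv1 (mean 8.47) and Ndufb4 (mean 9.11) differed by less, at -0.32 and -0.53. Those of Ndufb2 (mean 7.53), Ndufa12 (mean 8.76) and Ndufa5 (mean 8.41) differed by -1.31, -1.67 and -1.29. Sets of Ndufa12 and Ndufb4 under the array median, at means of 3.45 and 3.66, differed by 0.02 and -0.23. Of the large granulocyte drops, Ndufc2 did not pass here, with macrophages at 9.59, 9.78 and 9.99. The core subunit Ndufs3 read 7.78, 7.64 and 7.54 and fell by 0.56 (limma adjusted p = 0.0245). In complex II, Sdhc fell by 0.83 (SE 0.26, limma adjusted p = 0.0325), and Sdha, Sdhb and Sdhd did not pass. Sdha differed by -0.20 on the probe set used and by -0.79 on another, at a mean of 9.44. Its sets at means of 3.21 and 2.82 differed by -0.08 and -0.05.

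Complex III and the c-ring of ATP synthase each held genes that were lower in macrophages. Uqcr11 read 8.21, 8.01 and 8.20 in macrophages, more than 1 log2 unit below every wild-type MDP pool (difference -1.59, SE 0.17, limma adjusted p = 6.1e-06). Uqcr10 differed by -0.98 (SE 0.23) and Uqcrq by -0.90 (SE 0.25), which made 3 of 7 called. Atp5g1 read 8.36, 8.12 and 8.34 in macrophages, all under the lowest MDP value of 9.41 (difference -1.35, SE 0.22, limma adjusted p = 0.000369). Atp5g2 read 8.59, 8.89 and 8.98 and differed by -0.85 (SE 0.23), while Atp5g3 did not pass. In all, 7 of 17 ATP synthase genes fell, among them Atp5b (-0.76), Atp5o (-0.76) and Atp5j2 (-0.74).

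In complex IV 3 of 17 genes fell, a share under that of the high-signal genes, and 1 rose. Cox6b2 read 6.36, 6.74 and 6.69 in macrophages and differed by -1.60 (SE 0.38, limma adjusted p = 0.00536), Cox5a differed by -1.03 (SE 0.21) and Cox6b1 by -0.78 (SE 0.16). Cox7a2l, the factor that joins complexes III and IV in supercomplexes, read 11.41, 11.57 and 11.55 in macrophages and 10.56, 10.73 and 10.73 in wild-type MDPs. All macrophage pools lay above all MDP pools (difference 0.84, SE 0.19, limma adjusted p = 0.00437). Cox7a2l was the only member called higher on the deposited scale, against 3 with arrays centred on the high-signal genes. On that second scale 1004 of the 4275 high-signal genes were called higher and 984 lower.

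**Figure D3:**
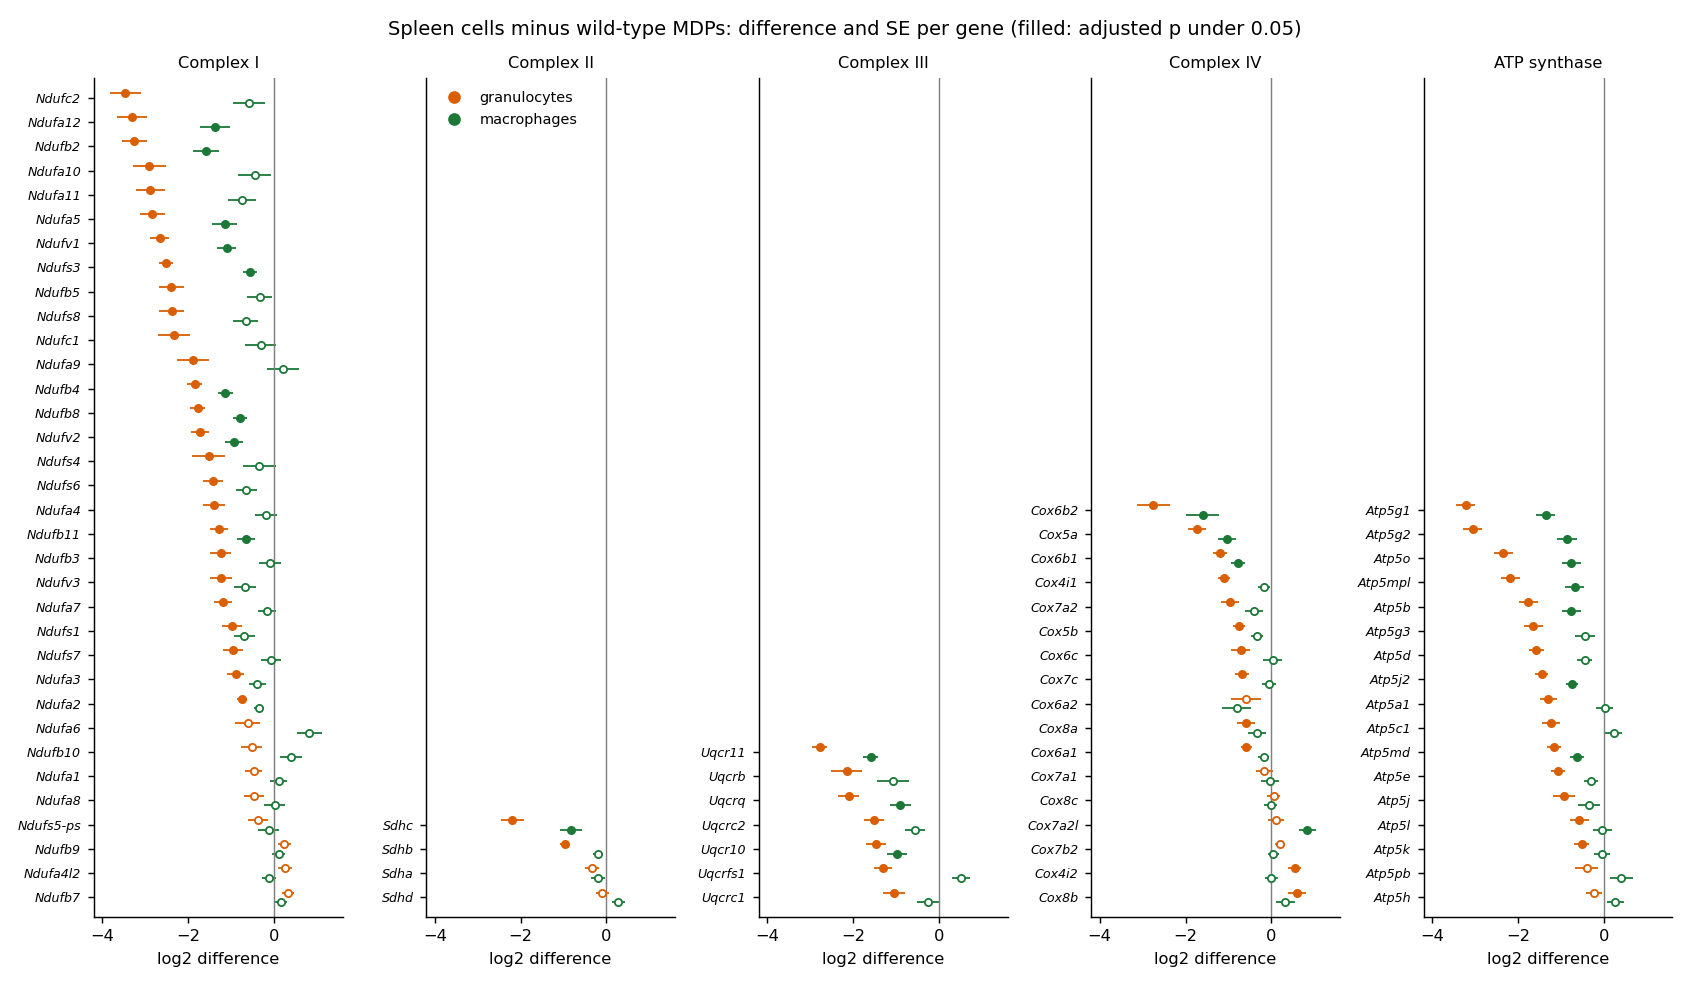
Difference from wild-type MDPs on the log2 scale for each of the 79 genes, in granulocytes (orange) and macrophages (green), by complex; bars are the SE and filled points have an adjusted p under 0.05. Most orange points lie left of 0 and further left than the green ones, and Cox7a2l is the only filled green point right of 0.

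Macrophages and granulocytes were compared as the mature myeloid populations of spleen, and most subunit genes were higher in macrophages. Of the 79 genes, 56 were called higher in macrophages and 1, Cox4i2, lower, against 31.2% of all genes called, 18.4% as higher and 12.8% as lower. Of the high-signal genes, 42.4% were called higher. The median difference was 0.79, against -0.09 over all genes and 0.46 over the high-signal genes. Centring arrays on the high-signal genes moved the median of all genes to -0.59. On that scale 31 members were called higher and 7 lower, with a median of 0.29, and complex IV had 1 higher and 4 lower. Of all 17097 genes, 2053 were then called higher and 9664 lower. Among the 4275 high-signal genes, 1233 were called higher and 1282 lower, with a median of -0.04.

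By complex, 26 of 34 genes of complex I were higher in macrophages, 2 of 4 of complex II, 6 of 7 of complex III, 8 of 17 of complex IV and 14 of 17 of ATP synthase. Ndufc2 led complex I at 2.87 (SE 0.37, limma adjusted p = 3.07e-05), a 7.33-fold difference between the pool values given above, which did not overlap. It was followed by Ndufa10 (2.45), Ndufa11 (2.13), Ndufa9 (2.10) and Ndufb5 (2.06). Uqcrfs1, the Rieske iron-sulfur protein of complex III, read 8.33, 8.55 and 8.65 in macrophages and 7.13, 6.28 and 6.65 in granulocytes (difference 1.82, SE 0.21, limma adjusted p = 1.14e-05). Sdhc differed by 1.36 and Sdhb by 0.77. Atp5g2 differed by 2.21 (SE 0.23), Atp5g1 by 1.87 (SE 0.22), Atp5o by 1.58, Atp5mpl by 1.51 and the central stalk gene Atp5c1 by 1.46. The 8 genes called higher in complex IV ran from Cox6b2 (1.16, SE 0.38) and Cox4i1 (0.92, SE 0.14) through Cox6c (0.74), Cox7a2l (0.72), Cox5a (0.70) and Cox7c (0.62) to Cox5b (0.42) and Cox6a1 (0.40). Both Cox5b and Cox6a1 reversed sign with arrays centred on the high-signal genes. Cox4i2 fell by 0.55 (limma adjusted p = 0.0108). Of 44 other probe sets of the called genes, 34 had the same sign. Those of Atp5g1, Ndufa10 and Ndufa11 were among the exceptions, at low means of 3.79, 5.05 and 3.89.

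Together, 51 genes were called lower in granulocytes than in both macrophages and wild-type MDPs, and 21 were called in all 3 comparisons in the order granulocytes, macrophages, wild-type MDPs. The 3 comparisons share arrays pairwise, so these counts are not independent. Shares over all genes or over the high-signal genes were not counted for them, so neither count is read as a result about the members. Calls between macrophages and granulocytes numbered 41 without granulocyte pool 2 and 65 without granulocyte pool 1.

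Knockout-labelled and wild-type MDPs addressed whether the pools titled IRF8_ko_MDP differed from wild-type progenitors. None of the 79 genes was called by limma, where 0.907% of all genes were, and 1 had an unadjusted p under 0.05. The members' differences ran from -0.56 to 0.64 with a median of -0.08, against 0.01 over all genes. For 73 of the 79, the 95% confidence interval of the difference lay within 1 log2 unit of 0, that is, under a 2-fold change. The arrays of both groups did not overlap for 11 members, where they did not overlap for 14.7% of all genes.

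The gene with the smallest p was Sdhb, at 9.23, 9.14 and 9.06 in knockout-labelled and 9.49, 9.53 and 9.46 in wild-type MDPs. All knockout-labelled values lay below all wild-type values, yet the difference of -0.35 (SE 0.12) did not pass (limma adjusted p = 0.321). The smallest p in the other complexes belonged to Ndufa3 (-0.32), Uqcrb (-0.56), Cox7a2l (0.38) and Atp5d (-0.31), with limma adjusted p from 0.639 to 0.813. Cox6a2, the heart and muscle isoform of Cox6a, had the highest difference, 0.64 (SE 0.34), from 8.18, 6.98 and 6.92 against 6.74, 6.55 and 6.88, and pool 1 alone stood well above the rest. Granulocyte markers read 6.72, 6.04 and 6.64 in the knockout-labelled pools, between wild-type pools 1 and 2 and wild-type pool 3, and their part was not tested.

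VENUS-negative and VENUS-positive MDPs contrasted progenitors by expression of the reporter, and Irf8 itself was low in the VENUS-negative pools. A single member, Cox6b2, was called, as higher in VENUS-negative cells, where 5.87% of all genes were called and 2.85% as higher. Cox6b2 read 9.55 and 8.96 in VENUS-negative and 6.76, 7.93 and 7.92 in VENUS-positive MDPs. Both VENUS-negative pools lay above all other 15 arrays. The difference was 1.72 (SE 0.42, limma adjusted p = 0.0236), or 3.29-fold. The call was lost without VENUS-negative pool 1 (limma adjusted p = 0.21), without VENUS-positive pool 1 and when only the arrays of both groups were fitted. Leaving out a VENUS-negative pool leaves 1 array in that group, which is then assumed to vary like the other groups.

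Over the 79 genes, 6 had an unadjusted p under 0.05, and the median difference was -0.02. For 70 genes the 95% confidence interval lay within 1 log2 unit of 0. Arrays did not overlap for 10 members, against 28.8% of all genes. Cox6a2 had a difference of the opposite sign that did not pass, at 4.99 and 6.30 in VENUS-negative and 6.42, 6.76 and 6.98 in VENUS-positive MDPs (difference -1.08, SE 0.38, limma adjusted p = 0.137). It was called without VENUS-negative pool 2, again with 1 array left in that group and the spread of the others. The smallest p in the other complexes belonged to Ndufb8 (-0.41), Sdhb (-0.32), Uqcrfs1 (-0.28) and Atp5md (0.18), with limma adjusted p from 0.248 to 0.749. Beside these values, 9 of 14 erythroid and megakaryocyte markers were called higher in VENUS-negative MDPs, with means of 9.25 and 8.49 against 5.44 to 5.77. Mast cell and basophil markers had 5 of 6 called higher (median difference 2.85) and NK cell markers 2 of 8 (median -0.01). MDP and early progenitor markers had 4 of 8 lower and 1 higher (median -0.88), macrophage markers 4 of 11 lower (median -0.42) and dendritic cell markers 2 of 6 lower (median -0.25). Granulocyte and B cell markers had 1 lower each, and no T cell marker was called by limma. The part of these marker changes in the Cox6b2 difference was not tested.

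Whether the VENUS difference was unlike the knockout-labelled difference was tested directly, gene by gene. No member was called by limma, against 3.6% of all genes, and 2 had an unadjusted p under 0.05. These were Cox6a2 (-1.71, SE 0.51, limma adjusted p = 0.0994) and Cox6b2 (1.86, SE 0.56, limma adjusted p = 0.104). Cox6b2, Cox6a2 and Ndufs8 were the 3 members whose 4 MDP means ranged over more than 1 log2 unit, at 1.72, 1.71 and 1.06. Ndufs8, a core subunit of the quinone module, read 9.23, 9.55 and 9.24 in wild-type MDPs and 8.62 and 7.93 in VENUS-negative MDPs, with knockout-labelled pools spread from 8.42 to 9.47. It was named after its values were seen.

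**Figure D4:**
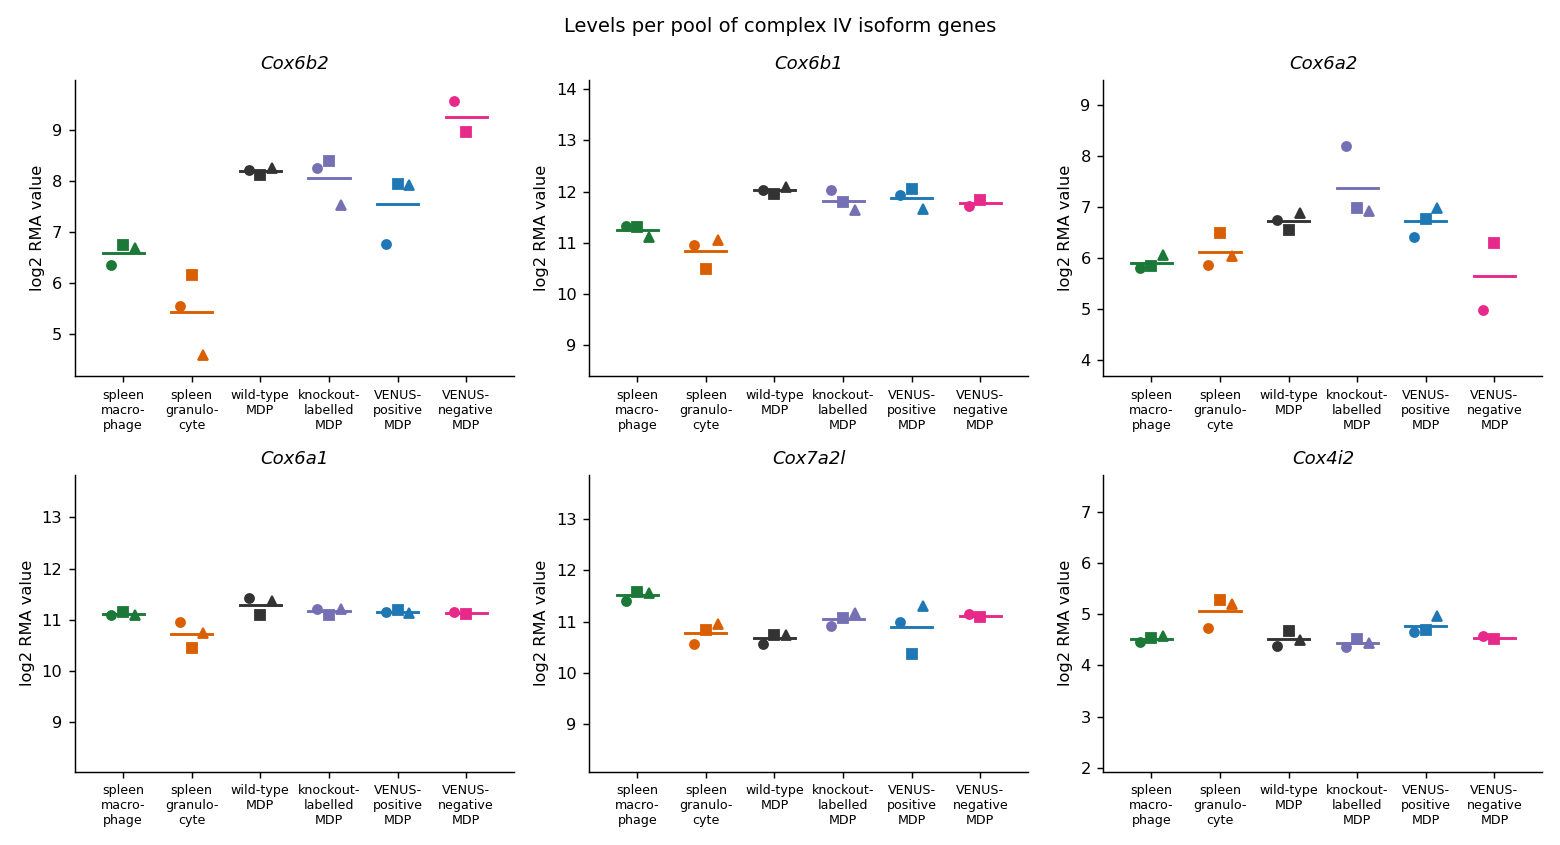
Log2 values per pool of 6 complex IV genes (circle, square and triangle for pools 1, 2 and 3; line, group mean; each panel has its own axis range of equal height). Cox6b2 and Cox6a2 vary most among the MDP groups, Cox6b1 and Cox6a1 vary little there, Cox7a2l is highest in macrophages, and Cox4i2 is highest in granulocytes.

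Other mitochondrial genes were counted in the same fit, from lists chosen by function. The counts for granulocytes stand beside 23.1% of all genes and 49.2% of the high-signal genes called lower, and a share near these is not a result about a list. In granulocytes against wild-type MDPs, electron carriers and their dehydrogenases had 6 of 7 genes lower and 1 higher. Cycs, cytochrome c, read 10.90, 10.66 and 10.81 in MDPs and 9.28, 7.11 and 8.55 in granulocytes (difference -2.48, limma adjusted p = 7.18e-05). Cyc1, the cytochrome of complex III, differed by -2.36. Gpd2, the mitochondrial glycerol phosphate dehydrogenase, was the exception, at 9.71, 8.68 and 8.95 in granulocytes and 7.55, 7.07 and 7.62 in MDPs (difference 1.70, SE 0.28, limma adjusted p = 0.000181). The granulocyte values of Gpd2 lay more than 1 log2 unit above the MDP values.

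Among the assembly factors, those of complex I had 11 of 13 lower (median -1.65), led by Ndufaf2 at -4.57 and Ndufaf4 at -3.95. Complex II and III factors had 6 of 9 lower (median -1.72), complex IV factors 10 of 18 lower and 1 higher (median -0.65, near the -0.61 of the high-signal genes), and the list of ATP synthase assembly, regulation and ATP export 6 of 7 lower (median -1.85). Cox17, the copper chaperone of complex IV, was the factor called higher, by 0.73, and Slc25a4, an ADP/ATP carrier, differed by -3.60. With arrays centred on the high-signal genes, 6 complex IV factors were called lower and 2 higher. Their median of -0.07 lay near the -0.03 of the high-signal genes on that scale. As with the subunits, complex IV and its factors had the median nearest to 0 among the complexes and factor lists, a description with no test between lists. The median of complex IV includes 7 isoform genes (median 0.06), 3 of them under the array median in every group. Its 9 general subunits had a median of -0.76, further from 0 than complex II at -0.66.

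The tricarboxylic acid cycle list had 11 of 15 genes lower (median -1.84), among them fumarase, Fh1, at -3.44, and the mitochondrial ribosome 35 of 38 lower (median -2.16). The list of mitochondrial biogenesis and mtDNA maintenance had 9 of 17 lower and 1 higher (median -0.88). Polrmt, the mitochondrial RNA polymerase, differed by -3.70 and Tfam, which packages mitochondrial DNA, by -2.19, whereas Nrf1 (0.55) and Gabpa (-0.12), which encode the factors of the promoter motifs above, did not pass. Coenzyme Q synthesis had 5 of 9 lower (median -0.67). The drop was not limited to mitochondria, since 28 of 29 cytosolic ribosomal protein genes (median -1.80) and 19 of 21 cell cycle genes (median -2.17) were also lower. With reference to the promoter motifs, members with the NRF1 core had a median of -0.79 (8 of 10 lower), members with the ETS core -0.93 (12 of 15 lower) and members with neither -1.45 (35 of 43 lower).

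**Figure D5:**
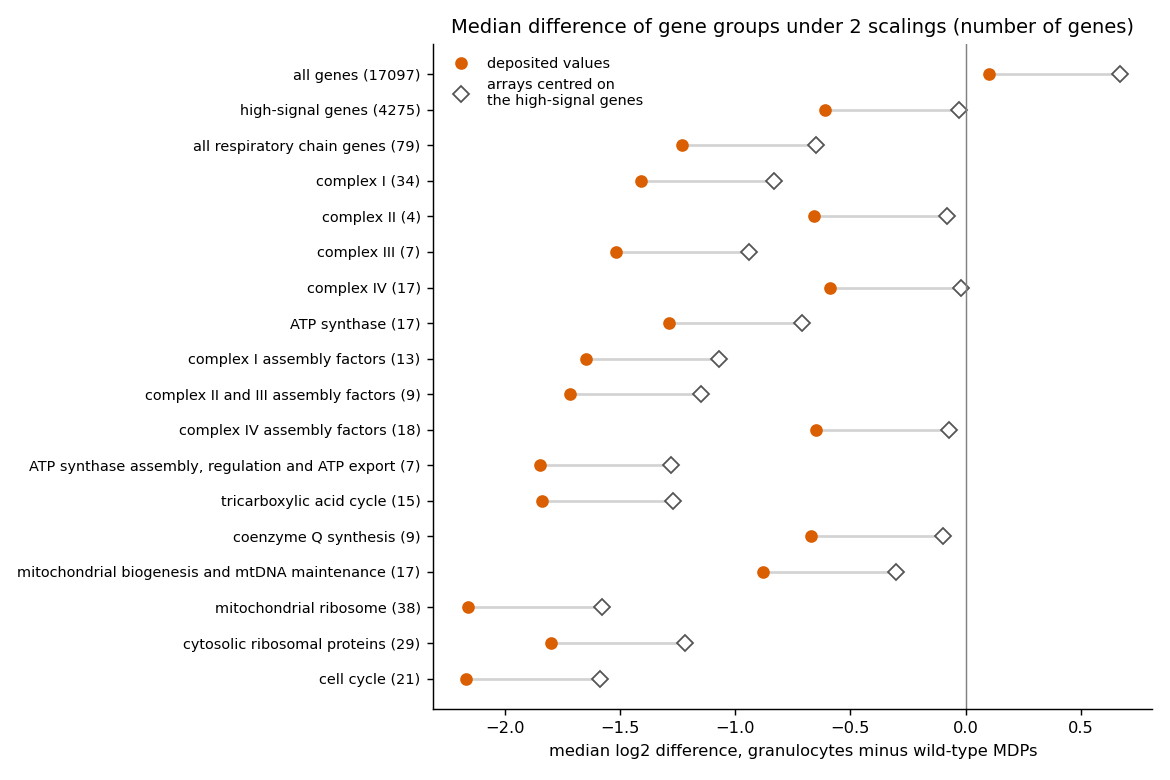
Median log2 difference of granulocytes from wild-type MDPs for each gene group, with the deposited values (filled) and with arrays centred on the high-signal genes (open); the number of genes is in brackets. Complexes I and III and ATP synthase lie left of all genes and of the high-signal genes on both scales, while complexes II and IV lie near the high-signal genes.

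In macrophages against wild-type MDPs the same mitochondrial lists had fewer calls, beside 12.2% of all genes and 24.7% of the high-signal genes called lower. Complex I assembly factors had 8 of 13 lower and 1 higher, complex II and III factors 4 of 9 lower, complex IV factors 4 of 18, the ATP synthase and export list 3 of 7, electron carriers 3 of 7, biogenesis 6 of 17 and coenzyme Q synthesis 2 of 9. The shares of complex IV factors and of coenzyme Q synthesis were near that of the high-signal genes. The mitochondrial ribosome had 17 of 38 lower (median -0.70). The tricarboxylic acid cycle had 4 of 15 lower and 2 higher, Idh2 (1.19) and Dlst (0.81). Of the comparison lists, cell cycle genes were lower for 21 of 21 (median -3.19), while cytosolic ribosomal protein genes were lower for 4 of 29 and higher for 1 (median -0.13). Between macrophages and granulocytes, 32 of 38 mitochondrial ribosome genes, 12 of 15 tricarboxylic acid cycle genes and 29 of 29 cytosolic ribosomal protein genes were higher in macrophages, beside 18.4% of all genes and 42.4% of the high-signal genes.

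In the progenitor comparisons 1 gene of these lists passed, 1 of the 18 complex IV factors. Of all genes, 0.907% were called between knockout-labelled and wild-type MDPs and 5.87% between the VENUS groups. A single call over all these lists is not a result about them. Higd1a, a complex IV assembly and hypoxia-response gene, read 8.01, 7.74 and 7.76 in knockout-labelled and 8.89, 8.57 and 8.92 in wild-type MDPs, without overlap (difference -0.95, SE 0.21, limma adjusted p = 0.0484). Leaving out single pools raised its limma adjusted p to as much as 0.185, and the call was lost under each of the 3 other scalings (arrays centred on their median or on the high-signal genes, or quantile normalized again). Between VENUS-negative and VENUS-positive MDPs, no gene of the mitochondrial lists was called by limma.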

How the data were processed

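RNA of 17 cell pools was measured on Affymetrix arrays. Per the submitters' processing notes, the authors computed the deposited log2 values in Affymetrix Expression Console by RMA (background correction, quantile normalization between arrays, 1 summary value per probe set). Not given in the sources used here are tool versions, the array's genome build and whether all arrays were normalized as 1 set. Of 45037 probe sets, the platform annotation gave 28898 exactly 1 symbol, 551 several and 15588 none. The 79 members came from 135 probe sets, 38 members had several, and 16 were represented by probe sets that may detect related transcripts (suffix _x or _s).

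Each of 17097 genes was tested with limma 3.58.1 in R 4.3.3, with 1 mean per group over all 17 arrays (11 residual and 3.21 prior degrees of freedom), no filter on low values and Benjamini-Hochberg adjustment over all genes. Called genes had an adjusted p under 0.05. The fit was tested on simulated data of 17097 genes with the same spread per gene in every group. It recovered 62% of 2-fold and 96% of 4-fold changes between granulocytes and wild-type MDPs. Between knockout-labelled and wild-type MDPs it recovered 61% and 93%. In the real data the members varied more between granulocyte pools than in other groups. The simulated recovery therefore does not describe the comparisons with granulocytes.

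The text names, per comparison and complex, up to 5 called members per direction with the largest difference, the 4 Sdh genes, isoform sets, members under the array median throughout, and the member with the smallest p where a complex had no call. Genes outside the members were named from the lists after their values were seen. The members, lists and modules were chosen with earlier results of these data known. Alternatives were other fits (only the arrays compared, replicate block, trended and robust prior), scalings (array median, the 4275 genes of highest mean, quantile), the mean of all probe sets, a filter on low signal and leaving out each pool.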

Additional observations from a re-analysis of the deposited data

How the results depend on the processing

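The counts of called members were 62 (granulocytes against wild-type MDPs), 57 (macrophages against granulocytes), 24 (macrophages against wild-type MDPs), 1 (VENUS groups), 0 (knockout-labelled against wild-type MDPs) and 0 (difference of the last 2 differences). Leaving out single pools gave 57 to 65, 41 to 65, 17 to 33, 0 to 2, 0 to 0 and 0 to 1. With only the arrays of the groups compared, macrophages against wild-type MDPs had 40 calls and the VENUS groups 0. The main fit shares 1 spread per gene over all 6 groups. The members' median SD was 0.46 in granulocytes, 0.08 in macrophages and 0.15 in wild-type MDPs. The part of this unequal spread in the counts was not tested. Pool numbers did not pair the samples (median correlation of deviations 0.02 for same-numbered and -0.02 for other pools), and a fit with the pool number as a replicate block gave 62, 55, 25, 1, 0 and 0. The block within only the arrays compared, chosen after seeing the data, gave 55, 41, 33, 0, 0 and 0. With arrays centred on the 4275 genes of highest mean, macrophages against granulocytes reversed for Atp5k (-0.01), Cox5b (-0.07), Cox6a1 (-0.09) and Ndufa2 (-0.10). Granulocytes against wild-type MDPs reversed for Atp5k (0.05), Atp5l (0.00) and Sdhd (0.47). The calls kept under every alternative run were 44 of 62, 30 of 57, 16 of 24 and 0 of 1. Depth of signal limits the isoforms near the array median.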
